A study of Mus musculus with 4 samples.

Results

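Zfp36, Zfp36l1, Zfp36l2, Mbnl1, Zc3h12a and Rc3h1 are 6 of the 32285 genes listed in the count tables of T cells and neighboring cells sorted from B16 melanoma, and each encodes a protein that binds RNA. They were taken by their symbols. They were chosen by a readout, the levels of these same cells in the VISTA-KO and the WT library, so the ratios between the libraries in each cell kind are given as a description. In the VISTA-KO library, Mbnl1 was higher and Zfp36l2 was lower in all 4 cell kinds, and Rc3h1 had no common direction. Zfp36 had its highest ratio in regulatory cells. The ratio of Zc3h12a was highest there too, but its interval overlapped those of conventional CD4 and Siglech cells.

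ZFP36 (tristetraprolin) and its paralogs ZFP36L1 and ZFP36L2 carry a pair of CCCH zinc fingers that bind AU-rich elements, and they recruit deadenylases to short-lived transcripts such as those of cytokines. Zc3h12a encodes Regnase-1, an endonuclease that cuts stem-loops in transcripts of T cell activation and is itself cleaved by the protease MALT1 after receptor signaling, and Rc3h1 encodes Roquin-1, which binds related stem-loops. Mbnl1 encodes muscleblind-like 1, a CCCH protein that regulates alternative splicing and also the stability and localization of mRNA. In T cells, members of these families restrain cytokine production, activation and exit from quiescence.

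The cells came from mice on the C57BL/6 background with loxP-flanked Vsir, the gene of VISTA. VISTA-KO mice were Vsir fl/fl with CD4-Cre, in which the Cd4 promoter drives deletion in T cells during their development, and WT mice were Vsir fl/fl littermates without Cre. The mice were 6 to 8 weeks old. Both groups carried B16 tumors and received a TRP2 peptide vaccine with CpG and R848 on day 3 and anti-CTLA-4 antibody on days 4 and 8. TILs were taken on day 18 after treatment, pooled per genotype (5 to 6 mice by the methods, 6 to 8 tumors by a figure legend) and sorted as CD4+ and CD8+ cells. Each genotype is thus 1 pool and 1 library, no difference between the genotypes could be tested, and the spread between mice is not known. Intervals of levels and shares below are exact 95% intervals, Poisson for counts and Clopper-Pearson for shares. Those of log2 ratios combine the Poisson intervals of both libraries and are approximate. All intervals cover counting error only.

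After the filters (at least 600 genes, under 30% mitochondrial UMIs), 10224 WT and 9946 VISTA-KO cells remained, from 72098984 and 59916814 UMIs. The libraries shared 145 cell barcodes. CD8 cells (at least 1 UMI of Cd8a or Cd8b1, Cd4 at 0) numbered 5482 in WT and 4301 in VISTA-KO. Conventional CD4 cells (Cd4 without Foxp3) numbered 1661 and 2983, regulatory cells (Cd4 with Foxp3) 1491 and 1260, and Siglech cells (at least 2 Siglech UMIs, taken out of the T cell kinds) 221 and 138. Of the plasmacytoid dendritic cell markers other than Siglech itself, Irf8 was at 2670 and 3107 CPM and Ly6d at 2020 and 2463 CPM in Siglech cells, whereas in WT CD8 cells they were at 105 and 0.163 CPM. Summed T cell markers (Cd3e, Cd3d, Cd3g and Trac) were at 1260 CPM in WT Siglech cells and 631 CPM in those of VISTA-KO. CPM is a count scaled by the summed UMIs of the cell kind in that library. Regulatory cells were read more deeply in WT (median 8739 UMIs) than in VISTA-KO (5908), whereas the medians of the other kinds lay closer together. Vsir was at 112 CPM in CD8 cells of both libraries. Where its reads lie relative to the deleted exons is not known, so its level checks neither the deletion nor the labels, and whether Vsir was deleted in Siglech cells was not tested.

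The genes lie apart in the genome (GRCm38.p6, RefSeq): Zfp36 (ENSMUSG00000044786) at chr7:28376784-28379228, Zfp36l1 (ENSMUSG00000021127) at chr12:80107760-80113013, Zfp36l2 (ENSMUSG00000045817) at chr17:84183924-84187947, Mbnl1 (ENSMUSG00000027763) at chr3:60472559-60629750, Zc3h12a (ENSMUSG00000042677) at chr4:125118414-125127881 and Rc3h1 (ENSMUSG00000040423) at chr1:160906411-160974976. None of the 6 overlaps another annotated gene. The 250 bases before the RefSeq start sites of Zfp36, Zfp36l1 and Zc3h12a are shown because these 3 genes climbed most with immediate-early RNA in CD8 cells (described further on). Capitals mark a CArG box (the binding motif of serum response factor) in Zfp36 and an AP-1 site and a TATA box in Zfp36l1.
Zfp36, chr7:28379229-28379478, minus strand: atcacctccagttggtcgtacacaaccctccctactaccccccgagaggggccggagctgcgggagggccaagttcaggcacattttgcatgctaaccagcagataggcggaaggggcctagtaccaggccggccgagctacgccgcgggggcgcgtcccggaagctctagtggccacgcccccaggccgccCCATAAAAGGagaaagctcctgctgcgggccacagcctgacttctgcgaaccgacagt
Zfp36l1, chr12:80113014-80113263, minus strand: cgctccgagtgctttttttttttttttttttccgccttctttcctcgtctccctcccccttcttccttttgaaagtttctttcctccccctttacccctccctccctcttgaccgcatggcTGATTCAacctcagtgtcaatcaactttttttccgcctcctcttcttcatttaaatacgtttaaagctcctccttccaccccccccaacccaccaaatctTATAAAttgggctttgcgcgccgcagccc
Zc3h12a, chr4:125127882-125128131, minus strand: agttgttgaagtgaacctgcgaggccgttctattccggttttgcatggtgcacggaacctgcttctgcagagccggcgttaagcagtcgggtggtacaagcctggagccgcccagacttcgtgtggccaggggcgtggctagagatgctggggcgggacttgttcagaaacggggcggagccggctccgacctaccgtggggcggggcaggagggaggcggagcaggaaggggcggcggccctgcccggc
Both strands were searched. The CArG box of Zfp36 starts 58 bases before the start site (position -58) and shares its first base with the SP1 site (GGGCGG) at -63. Only 1.47% of 32851 promoter windows of this length hold a CArG box. Zfp36l1 holds an AP-1 site (TGANTCA, in 6.75% of windows) at -129 and a TATA box (TATAAA, in 12.4%) at -29. Zc3h12a holds none of these and 5 SP1 sites, a motif of 32.7% of windows. Rc3h1 (an AP-1 site at -133 and 5 SP1 sites) and the pair of Mbnl1 start sites hold no CArG box. No window of the members holds a cAMP response element (TGACGTCA, in 1.55% of windows). These matches are letters in a window and were not tested as sites.

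The ZFP36 paralogs differed in the cells where they were found. Zfp36l2 was highest in conventional CD4 cells (2000 CPM in WT, 1972 to 2028), followed by CD8 cells (1471), regulatory cells (1125) and Siglech cells (968), and this order was the same in VISTA-KO. Zfp36l1 was lowest in CD8 cells. Its level was 304 CPM in WT CD8 cells, 478 in conventional CD4 cells, 858 (844 to 872) in regulatory cells and 826 (791 to 862) in Siglech cells, so that the last pair did not differ beyond counting error. Zfp36, the inducible member, was highest in WT Siglech cells (1036 CPM, 997 to 1076) and lowest in CD8 cells (411). In VISTA-KO, the Zfp36 levels of Siglech (1241 CPM, 1184 to 1300), conventional CD4 (1235, 1217 to 1253) and regulatory cells (1189, 1167 to 1211) lay close together, and the interval of Siglech cells overlapped both others.

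Mbnl1 varied little between cell kinds, from 369 CPM in WT regulatory cells to 469 CPM (443 to 496) in WT Siglech cells. In VISTA-KO its level lay between 598 and 658 CPM, and the interval of Siglech cells (594 to 677) overlapped those of all T cell kinds. Zc3h12a was a low transcript, at 46.5 to 60.6 CPM in WT. It was highest in conventional CD4 cells, and in VISTA-KO the intervals of conventional CD4 (105 CPM, 100 to 110) and regulatory cells (99.5 CPM, 93.2 to 106) overlapped. Rc3h1 was lower still, at 24.6 to 34.9 CPM in WT, where the intervals of every pair of cell kinds overlapped.

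**Figure D1:**
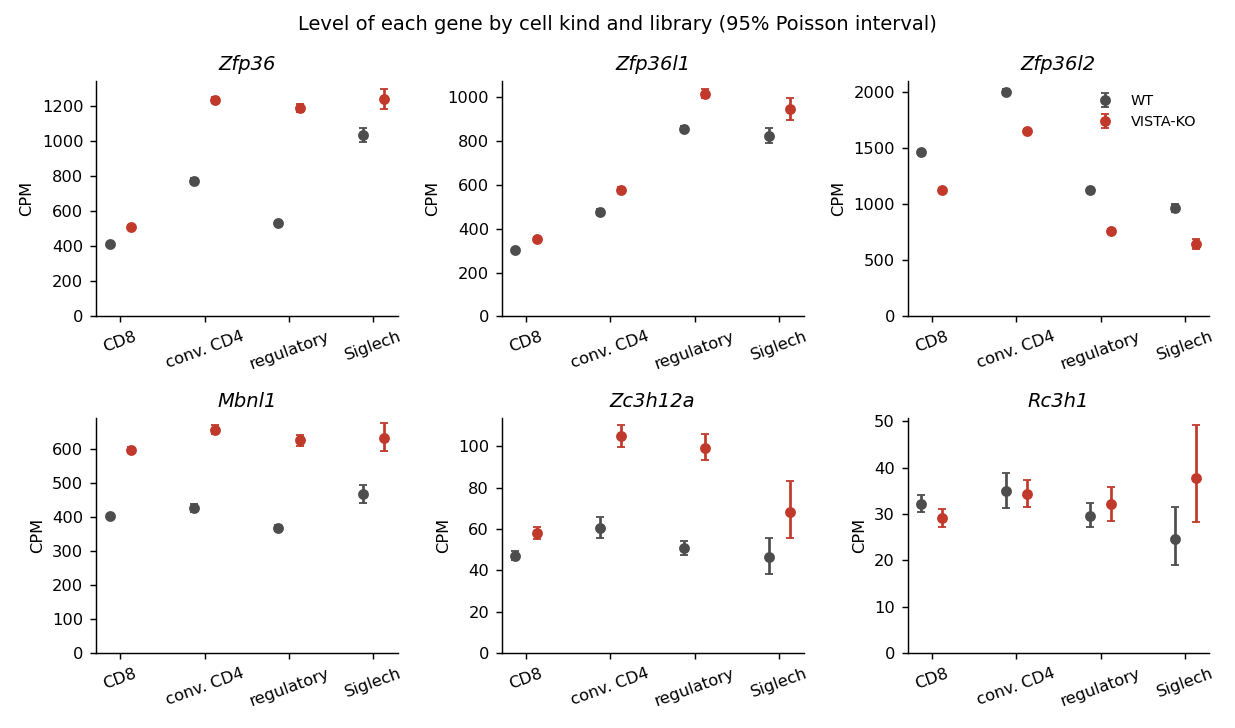
Level of each gene in CPM (linear axis from 0) in CD8, conventional CD4, regulatory and Siglech cells. Points are the WT (grey) and the VISTA-KO (red) library, bars are 95% Poisson intervals; all red Mbnl1 points lie above and all red Zfp36l2 points lie below the grey ones.

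Ratios of VISTA-KO over WT were taken on the log2 scale after adding 5 CPM, which understates the change of low genes, and a gene was counted as higher or lower where this ratio was at least 0.32 in size. Each member had at least 20 CPM in 1 of the libraries in every cell kind. The medians of all genes with that level lay between -0.04 and -0.01 on the log2 scale. In CD8 cells, 1 of the 6 genes was higher in VISTA-KO by that threshold and 1 was lower, where 2.57% and 1.6% of 6065 genes were. In conventional CD4 cells, 3 were higher and 0 lower (3.43% and 4.15% of 6261 genes). In regulatory cells, 3 were higher and 1 lower (6.28% and 5.45% of 6274 genes), and in Siglech cells, 3 were higher and 1 lower (10.4% and 12.1% of 6405 genes). Because the members were selected on this contrast, nothing is read from these counts.

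**Figure D2:**
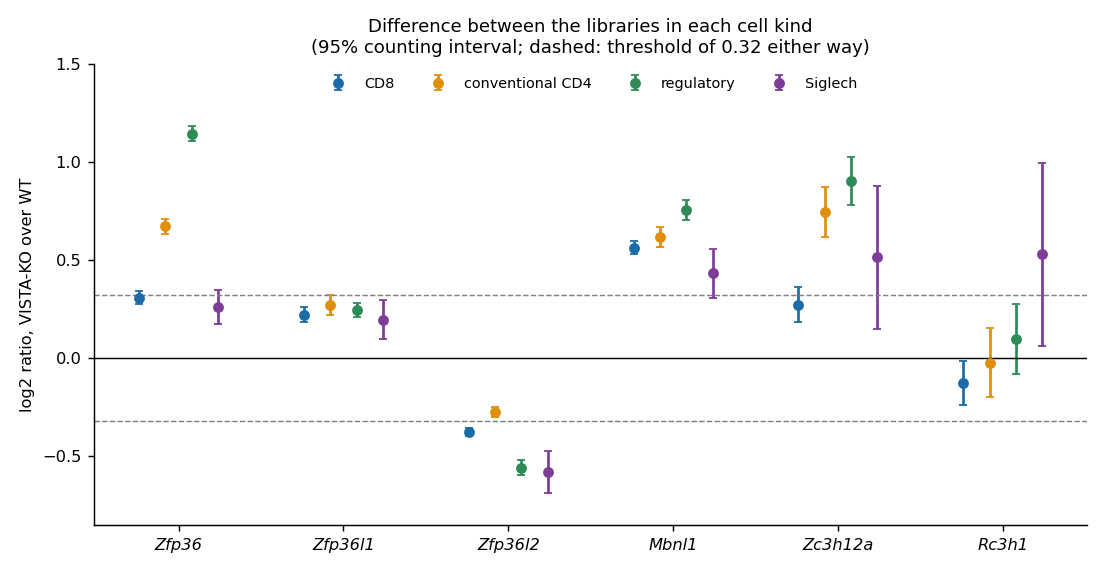
Log2 ratio of VISTA-KO over WT of each gene in 4 cell kinds, with 95% counting intervals; dashed lines mark the threshold of 0.32 either way. Mbnl1 lies above the upper line and Zfp36l2 below 0 in every cell kind, and Zfp36 reaches its highest ratio in regulatory cells. The Zc3h12a intervals of regulatory, conventional CD4 and Siglech cells overlap.

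Mbnl1 was the one gene past the threshold in all 4 cell kinds. Its level was 403 CPM in WT against 598 CPM in VISTA-KO CD8 cells, a log2 ratio of 0.56 (0.53 to 0.59). In conventional CD4 cells it was 427 and 658 CPM (0.62, 0.57 to 0.67), in regulatory cells 369 and 626 CPM (0.76, 0.71 to 0.81), and in Siglech cells 469 and 635 CPM (0.43, 0.31 to 0.56), where Siglech cells of 3000 to 8000 UMIs gave 0.23. In CD8 cells it ranked 55 of 6065 genes from the highest. Counted per cell after thinning to 2000 UMIs, a Mbnl1 UMI was found in 55.7% (54.4 to 57.1) of the CD8 cells from WT, against 66.9% (65.4 to 68.3) from VISTA-KO. In regulatory cells the shares were 51.2% and 68.7%. Without thinning these shares were 85.7% and 91.7% of CD8 cells and 88.9% and 93.4% of regulatory cells. The thinning left out 290 and 186 CD8 cells and 45 and 51 regulatory cells. No cell kind here is known to lack these genes, so the share that free RNA gives could not be read.

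Zfp36l2 was the one gene lower in VISTA-KO throughout. Its level was 1471 CPM in WT against 1131 CPM in VISTA-KO CD8 cells, a log2 ratio of -0.38 (-0.40 to -0.36). In conventional CD4 cells it was 2000 and 1653 CPM (-0.27, -0.30 to -0.25), within the threshold. In regulatory cells it was 1125 and 762 CPM (-0.56, -0.60 to -0.52), and in Siglech cells 968 and 646 CPM (-0.58, -0.69 to -0.47). T cell markers in Siglech cells differed in the same direction (1260 and 631 CPM, -0.99 for the sum), as did regulatory T cell markers (341 and 201 CPM, -0.75), and their part in this ratio was not tested. The share of regulatory cells with a Zfp36l2 UMI was 77.4% in WT and 63.4% in VISTA-KO after thinning, and 94.3% and 86.2% before it. Without the largest clonotype of each library, which held 1034 WT and 291 VISTA-KO CD8 cells, the ratio in CD8 cells was -0.15 and no longer past the threshold. The ratio in conventional CD4 cells passed it under 7 of 16 alternatives.

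Zfp36 was higher in VISTA-KO in each cell kind, by unequal amounts. In regulatory cells its level was 535 CPM in WT against 1189 CPM in VISTA-KO, a log2 ratio of 1.14 (1.11 to 1.18) and rank 26 of 6274 genes from the highest. Within the states of regulatory cells described further on, its ratio ran from 0.70 to 1.16. Its level was 774 and 1235 CPM in conventional CD4 cells (0.67, 0.63 to 0.71). In CD8 cells it was 411 and 511 CPM, a 1.24-fold ratio just inside the threshold (0.31, 0.28 to 0.34) that 5 of 15 alternatives moved past it, and in Siglech cells it was 1036 and 1241 CPM (0.26, 0.17 to 0.35). Zfp36l1 was within the threshold in all 4 cell kinds, with ratios of 0.20 to 0.27, and in regulatory cells of 3000 to 8000 UMIs, a range chosen after the depths were seen, its ratio was -0.22.

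Zc3h12a was higher in VISTA-KO in each cell kind as well. Its level was 47.1 and 57.9 CPM in CD8 cells (0.27, 0.18 to 0.36), within the threshold. It was 60.6 and 105 CPM in conventional CD4 cells (0.75, 0.62 to 0.87) and 50.9 and 99.5 CPM in regulatory cells (0.90, 0.78 to 1.03), with overlapping intervals. In Siglech cells it rested on 119 and 98 UMIs, at 46.5 and 68.5 CPM (0.51, 0.15 to 0.88), and without cells with a Mki67 UMI the ratio there was 0.12. Rc3h1 differed little in T cells. It was at 32.2 and 29.1 CPM in CD8 cells (-0.12, -0.24 to -0.01), 34.9 and 34.3 CPM in conventional CD4 cells (-0.02, -0.20 to 0.15) and 29.6 and 32.1 CPM in regulatory cells (0.10, -0.08 to 0.28). In Siglech cells it was at 24.6 and 37.7 CPM, from 63 and 54 UMIs (0.53, 0.06 to 0.99).

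With Zfp36 higher and Zfp36l2 lower, the family differed between the libraries in its make-up. The summed level of Zfp36, Zfp36l1 and Zfp36l2 was 2186 CPM in WT against 1996 CPM in VISTA-KO CD8 cells, 3251 and 3465 CPM in conventional CD4 cells, 2518 and 2969 CPM in regulatory cells and 2829 and 2833 CPM in Siglech cells. Of these UMIs, Zfp36l2 gave 67.3% in WT and 56.6% in VISTA-KO CD8 cells, and 61.5% and 47.7% in conventional CD4 cells. In regulatory cells its share was 44.7% and 25.7%, whereas that of Zfp36 was 21.3% and 40.0% and that of Zfp36l1 34.1% and 34.3%. Siglech cells had 34.2% and 22.8% from Zfp36l2. UMI counts are not scaled to transcript length, so these are shares of molecules read, compared between cell kinds and libraries only. The CD8 values keep the largest clonotype of each library, without which the Zfp36l2 ratio over all CD8 cells was -0.15. The part of these clonotypes in the CD8 shares and sums was not tested.

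**Figure D3:**
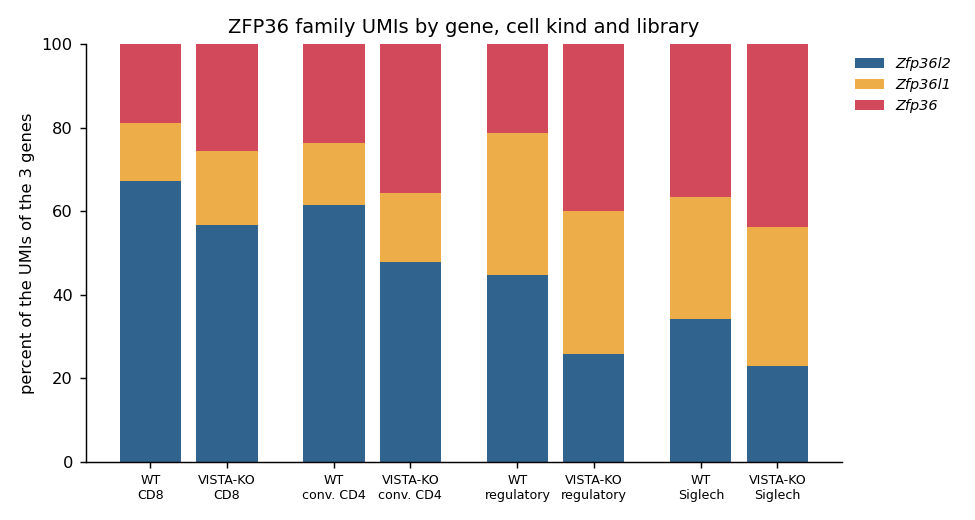
Percent of the summed UMIs of Zfp36, Zfp36l1 and Zfp36l2 that each gene gave, by cell kind, WT beside VISTA-KO. The Zfp36l2 part (blue) is smaller in VISTA-KO in all 4 cell kinds, from 44.7% to 25.7% in regulatory cells.

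A Zfp36 UMI was the more frequent among cells that also had a Zfp36l2 UMI. After thinning, a Zfp36 UMI was present in 44.1% of the WT CD8 cells with a Zfp36l2 UMI and in 31.6% of those without, and in VISTA-KO the shares were 49.4% and 36.7%. In WT regulatory cells they were 58.3% and 39.8%, and in VISTA-KO regulatory cells 75.5% and 67.9%. For Mbnl1 as the partner, Zfp36 was found in 41.3% of WT CD8 cells with and 42.8% without a Mbnl1 UMI, and in VISTA-KO in 47.3% and 45.1%. In regulatory cells the shares by Mbnl1 were 54.0% and 54.2% in WT and 74.4% and 69.0% in VISTA-KO. Cells of 1 library are not replicates, and these shares are a description.

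To see whether a difference between the libraries ran through cells of different states, cells were divided by gates on genes other than the members. CD8 cells formed 6 states in this order: Mki67+ (dividing), Ccr7+ (naive and central memory), Pdcd1+ Havcr2+ (PD-1 and TIM3, terminal exhaustion), Pdcd1+ Tcf7+ (progenitor exhaustion), other Pdcd1+, and the rest. Conventional CD4 and regulatory cells formed 4 states each (Mki67+, Ccr7+, Pdcd1+ and the rest), for 14 in all. The states divide the same cells on whose contrast the members were chosen, so counts of states below repeat that contrast and are a description. The gates were not adjusted for depth, except in an alternative, where 28 ratios within states moved and 56 did not. Median depth also differed within states. It was 16246.5 UMIs in WT against 8746.5 in VISTA-KO Mki67+ regulatory cells, and 8798 against 6335.5 in Mki67+ conventional CD4 cells.

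Mbnl1 was higher in VISTA-KO in all 14 states, with every interval above 0 and log2 ratios of 0.40 to 0.85. Its lowest ratio was in Ccr7+ CD8 cells (390 and 515 CPM) and its highest in Ccr7+ regulatory cells (356 and 647 CPM). Zfp36l2 was lower in 13 of 14 states, with ratios down to -0.96 in Pdcd1+ regulatory cells (1379 and 708 CPM). The exception was Mki67+ conventional CD4 cells, at 1214 and 1247 CPM (0.04, -0.03 to 0.11).

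Zfp36 was higher in 13 of 14 states. It was 439 CPM in WT against 1029 CPM in VISTA-KO Mki67+ conventional CD4 cells (1.22, 1.12 to 1.32), and 415 and 937 CPM in Mki67+ regulatory cells (1.16, 1.09 to 1.24). In Pdcd1+ Havcr2+ CD8 cells, in contrast, it was 259 and 227 CPM (-0.19, -0.31 to -0.07). In the other regulatory states its ratio was 1.06 (Ccr7+), 0.70 (Pdcd1+) and 0.84 (the rest). Mki67+ regulatory cells, which had the lowest Zfp36 level in both libraries, numbered 448 in WT and 266 in VISTA-KO. The rest, with the highest level, numbered 313 and 527. The part of this make-up in the ratio over all regulatory cells was not tested. Zc3h12a was higher in all 14 states, with an interval above 0 in 10, and Rc3h1 was higher in 7 and lower in 7.

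The states also differed from one another. Zfp36l2 was at 795 CPM in WT Mki67+ CD8 cells and at 2350 CPM in the CD8 cells of no other state, a 2.96-fold range, which was 2.75-fold in VISTA-KO. Zfp36 ranged from 252 CPM in Mki67+ to 685 CPM in the remaining WT CD8 cells. In VISTA-KO CD8 cells its range was wider, from 227 CPM in Pdcd1+ Havcr2+ cells to 888 CPM in the remaining cells. Zfp36l1 was lowest in Pdcd1+ Havcr2+ CD8 cells of both libraries (198 and 190 CPM). In both libraries the interval overlapped that of Mki67+ CD8 cells (218 and 195 CPM). In Pdcd1+ Tcf7+ CD8 cells, Zfp36l1 was at 378 CPM in WT against 548 CPM in VISTA-KO (0.53, 0.41 to 0.65), its highest ratio of the 14. Mbnl1 varied little, with ranges of 1.17-fold to 1.55-fold between the states of a kind.

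**Figure D4:**
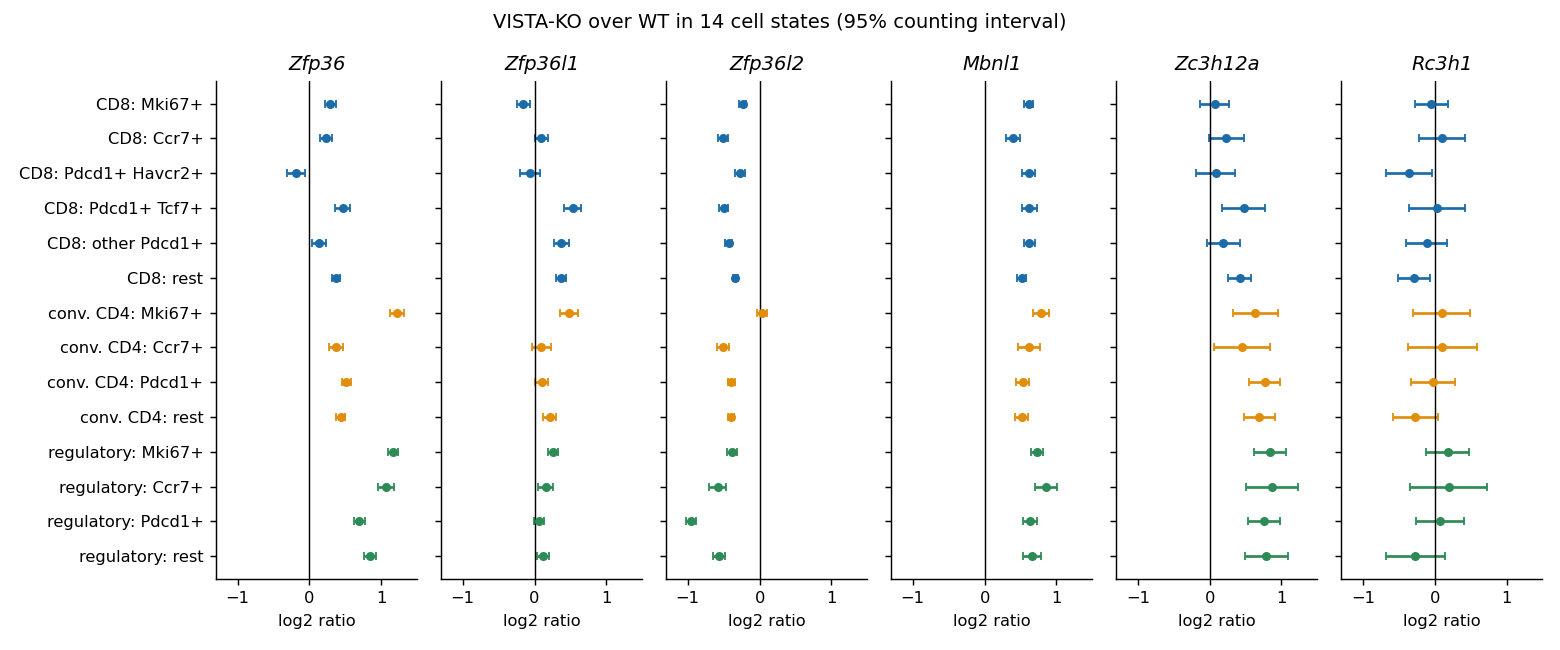
Log2 ratio of VISTA-KO over WT of each gene in 6 states of CD8 cells (blue), 4 of conventional CD4 cells (orange) and 4 of regulatory cells (green), with 95% counting intervals. Mbnl1 lies to the right of 0 in all 14 states, Zfp36l2 to the left in 13, and Rc3h1 on both sides.

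Zfp36 belongs to the immediate-early genes, which are transcribed within minutes of a stimulus, including the dissociation of a tissue. A list of 17 such genes that holds no member (among them Fos, Junb, Ier2 and Nr4a1) summed to 5570 CPM in WT against 7451 CPM in VISTA-KO CD8 cells, 8835 and 13582 CPM in conventional CD4 cells, 6588 and 11640 CPM in regulatory cells and 5096 and 6010 CPM in Siglech cells. The cells of each kind from both libraries were ranked by their share of UMIs from this list and divided into 3 groups of equal size. Like the states, the groups divide the cells on whose contrast the members were chosen, so counts of groups are a description. The group with most immediate-early RNA held 25.5% of WT and 43.3% of VISTA-KO CD8 cells, 19.9% and 40.8% of conventional CD4 cells, 17.0% and 52.7% of regulatory cells and 27.1% and 43.5% of Siglech cells.

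Zfp36 climbed steeply across these groups. In WT CD8 cells it was at 164 CPM in the lowest, 376 CPM in the middle and 1009 CPM in the highest group, and in VISTA-KO CD8 cells at 142, 305 and 1041 CPM. Within the groups, its log2 ratio in CD8 cells was -0.21 (-0.31 to -0.11), -0.30 (-0.36 to -0.23) and 0.04 (0.00 to 0.09), whereas over all CD8 cells it was 0.31. Within these groups, Zfp36 was lower or close to level in VISTA-KO CD8 cells. Zfp36 belongs to the same class of genes as the list that formed the groups. A smaller ratio within groups can therefore arise from the grouping itself, and no cause is read from it. In conventional CD4 cells the ratios were 0.51, 0.05 and 0.04, and in regulatory cells 0.52, 0.25 and 0.43, below the 1.14 of all regulatory cells but each with an interval above 0. The groups were not fully matched between the libraries. In the highest group, immediate-early RNA was at 11796 CPM in WT against 13032 CPM in VISTA-KO CD8 cells, and at 15253 and 17444 CPM in regulatory cells. The lowest group of regulatory cells had a median of 10928 UMIs in WT and 7130 in VISTA-KO. A split by Nr4a1 alone gave other values. The ratio of Zfp36 was 0.13 in CD8 cells with a Nr4a1 UMI and 0.23 in those without one, 0.63 and 0.38 in conventional CD4 cells, and 1.18 and 0.70 in regulatory cells.

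Weighting the groups in both libraries by their shares of WT cells, a setting added after these values were seen, gave Zfp36 ratios of -0.08 in CD8, 0.17 in conventional CD4, 0.38 in regulatory and 0.22 in Siglech cells. The same limit of the grouping holds for these weighted ratios. Zc3h12a also climbed across the groups, from 27.3 to 50.3 to 85.0 CPM in WT CD8 cells. Its weighted ratio was 0.01 in CD8 cells, 0.37 in conventional CD4 cells and 0.41 in regulatory cells. Zfp36l1 had weighted ratios of -0.04, -0.02 and 0.00 in CD8, conventional CD4 and regulatory cells.

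Zfp36l2 and Mbnl1 behaved otherwise. Zfp36l2 also climbed with immediate-early RNA, from 1133 to 1565 to 2051 CPM in WT CD8 cells, and yet was lower in VISTA-KO in all 12 groups of the 4 cell kinds, each with an interval below 0. Within regulatory cells it was at 885 and 436 CPM in the lowest group (-1.01, -1.11 to -0.92) and at 1785 and 949 CPM in the highest (-0.91, -0.97 to -0.84). Its weighted ratio was -0.52 in CD8 cells and -0.91 in regulatory cells, larger in size than the ratios over all cells. The CD8 groups, like the CD8 states, keep the largest clonotype, without which the Zfp36l2 ratio over all CD8 cells was -0.15. Its part in the ratios within groups and states was not tested. Mbnl1 was higher in VISTA-KO in all 12 groups, with an interval above 0 in 11. It climbed little in WT CD8 cells, at 388, 406 and 432 CPM in the groups. In the same order it was at 522, 584 and 677 CPM in VISTA-KO CD8 cells and at 493, 616 and 700 CPM in VISTA-KO regulatory cells. Its ratios were 0.43, 0.52 and 0.64 in CD8, 0.61, 0.55 and 0.55 in conventional CD4 and 0.50, 0.67 and 0.71 in regulatory cells. Its weighted ratio in regulatory cells was 0.61, against 0.76 over all of them. Split by Nr4a1, the ratio of Zfp36l2 in conventional CD4 cells was -0.09 (-0.12 to -0.05) with a Nr4a1 UMI and -0.40 (-0.44 to -0.35) without one, and that of Mbnl1 was 0.70 and 0.62.

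**Figure D5:**
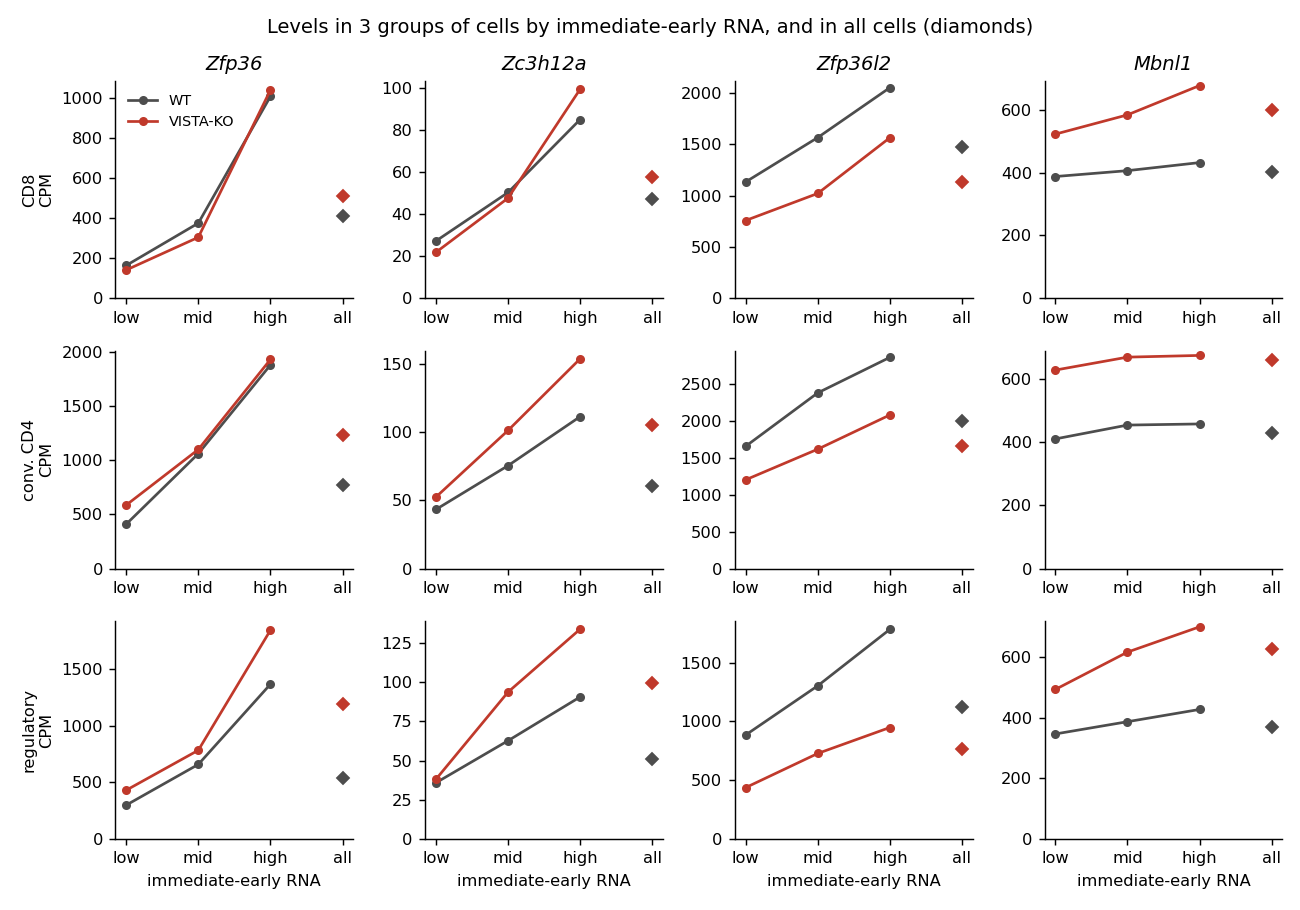
Level in CPM (linear axes from 0) of Zfp36, Zc3h12a, Zfp36l2 and Mbnl1 in 3 groups of cells by immediate-early RNA (low, mid, high) and in all cells (diamonds), for CD8, conventional CD4 and regulatory cells, WT grey and VISTA-KO red. The Zfp36 lines of CD8 cells run close together (1009 and 1041 CPM in the highest group), whereas the Zfp36l2 and Mbnl1 lines stay apart in every group.

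The genes whose pattern was most like that of each member were sought among 4808 genes over 30 groups (the 14 states and the Siglech cells of both libraries). Zfp36 was most like Fos (r = 0.956), followed by Cmtm6 (0.926) and Nfkbiz (0.913). Zc3h12a was most like Csrnp1 (0.920), Kdm6b (0.895) and Nfkbiz (0.874). Zfp36l1 was most like Cbl (0.901), Bcl3 (0.897) and Birc3 (0.894), and Mbnl1 most like Nfkbid (0.889), Tagap (0.858) and Irf1 (0.848). Zfp36l2 was most like Fryl (0.902), Slco3a1 (0.859) and Smap1 (0.857), and Rc3h1 most like Ccny (0.839), Clk2 (0.829) and Rabac1 (0.814). Among the members, Zfp36 and Zc3h12a were most alike (0.826), and Zfp36l1 and Zfp36l2 had an r of -0.06. Because the groups come from both libraries, the difference between the libraries, on which the members were chosen, is part of every pattern. The groups also share libraries, sequencing depth and pools of mice, so these values of Pearson's r on log2 levels are a description.

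Of the 5 close relatives of the members with at least 20 CPM in CD8 cells (Zc3h12d, N4bp1, Rc3h2, Mbnl2 and Zc3hav1), 0 were past the threshold. Few of all genes were past it there, so nothing is read from this count. Mbnl2, the paralog of Mbnl1, was at 32.2 and 32.5 CPM. In conventional CD4 cells 0 of 6 were higher and 1 was lower, Mbnl2 (37.9 and 27.3 CPM, -0.41). In regulatory cells 1 of 5 was higher, Zc3hav1 (230 and 290 CPM, 0.33), and 0 were lower. In Siglech cells 2 of 6 were higher and 1 was lower, Rc3h2 (32.0 and 23.1 CPM, -0.40, -0.91 to 0.10). The higher ones were Zc3h12c (52.7 and 101 CPM, 0.87, 0.55 to 1.19) and Mbnl2 (37.5 and 62.2 CPM, 0.66), the latter from 96 and 89 UMIs. The machinery of mRNA decay was close to level in CD8 cells. Of 24 genes for deadenylation, decapping and decay, 2 were higher, 0 were lower and the median log2 ratio was 0.02, beside -0.03 over all genes. The genes past the threshold were both antiproliferative factors that bind the CCR4-NOT deadenylase, Btg2 (254 and 388 CPM, 0.60) and Tob2 (57.6 and 74.5 CPM, 0.34), and Btg2 is also on the immediate-early list. In regulatory cells, 4 of 24 were higher (Btg2, Tob1, Tob2 and Cnot4) and 0 lower. Over all genes, 2.57% were higher and 1.6% lower in CD8 cells, and 6.28% were higher and 5.45% lower in regulatory cells. The shares were 3.43% and 4.15% in conventional CD4 cells and 10.4% and 12.1% in Siglech cells.

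Of 15 other proteins that bind AU-rich elements or regulate splicing, 0 were higher and 1 was lower in CD8 cells, Tia1 (46.0 and 35.3 CPM, -0.34), which encodes a stress granule protein. Over all genes in CD8 cells, 2.57% were higher and 1.6% lower. Celf2, a splicing factor, was at 259 and 207 CPM (-0.32, just within the threshold), and at 295 and 222 CPM (-0.40) in conventional CD4 cells. Of 13 kinases, phosphatase subunits and proteases that act on the members, 0 were past the threshold in CD8 cells. Malt1, the protease that cleaves Regnase-1 and Roquin-1, was at 127 and 102 CPM (-0.31) there and at 158 and 119 CPM (-0.39) in conventional CD4 cells. Mapkapk2, the kinase that phosphorylates ZFP36, was at 79.7 and 86.1 CPM (0.10).

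Transcripts known as targets of ZFP36 proteins included several that were higher in VISTA-KO. The gene lists were chosen with earlier results of these data known, so their counts, also beside those of all genes, are a description. Of 12 such transcripts with at least 20 CPM in CD8 cells, 5 were higher and 0 were lower, with a median log2 ratio of 0.13. Over all genes there, 2.57% were higher and the median was -0.03. They were the cytokines Ifng (209 and 333 CPM, 0.66) and Tnf (42.9 and 67.6 CPM, 0.60), the kinase gene Pim1 (0.48), and Fos (0.40) and Ier3 (0.33), which are also on the immediate-early list. The counts were 6 higher and 1 lower of 12 in conventional CD4 cells, 7 higher and 0 lower of 12 in regulatory cells and 3 higher and 1 lower of 13 in Siglech cells, where 3.43%, 6.28% and 10.4% of all genes were higher. The medians of these lists were 0.35, 0.59 and 0.27. In regulatory cells Pim1 was at 417 and 901 CPM (1.10).

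Of 18 known targets of Regnase-1 or Roquin in CD8 cells, 5 were higher (Nfkbid, Irf4, Tnf, Ctla4 and Ier3; median of the list 0.14) and 1 was lower, Tnfrsf4 (138 and 73.5 CPM, -0.87), which encodes OX40. Nfkbid, an atypical inhibitor of NF-kB, was at 53.4 and 121 CPM (1.11). In regulatory cells 10 of 16 were higher and 0 lower, with Icos, the classic Roquin target, at 411 and 660 CPM (0.68), and Zc3h12a is itself on this list. In Siglech cells the counts were 7 higher and 6 lower of 17. Of all genes, 2.57% were higher and 1.6% lower in CD8 cells, 6.28% were higher in regulatory cells, and 10.4% were higher and 12.1% lower in Siglech cells. Tnf, Il2, Nfkbiz and Ier3 stand on both target lists.

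Immediate-early genes themselves were higher in 8 of 14 and lower in 1 (Jun, 348 and 274 CPM) in CD8 cells, led by Nr4a1 (127 and 371 CPM, 1.51). Of 8 heat shock genes, 0 were higher and 1 was lower in CD8 cells (Hspa1b, 121 and 85.9 CPM, -0.48), and 3 were lower in each of the other kinds. Of 13 genes of quiescence and the naive state, 4 were higher in CD8 cells (Klf2, Ccr7, S1pr1 and Satb1) and 1 was lower, Txnip (402 and 224 CPM, -0.83). Over all genes in CD8 cells, 2.57% were higher and 1.6% lower. In conventional CD4, regulatory and Siglech cells, 4.15%, 5.45% and 12.1% of all genes were lower.

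Some markers of other cells moved with the library, and their part in the ratios of the members was not tested beyond the following settings. Summed melanoma markers (Pmel, Mlana, Dct, Tyrp1 and Tyr) were at 10.6 and 203 CPM in CD8 cells, 231 and 16.1 CPM in conventional CD4 cells and 5.82 and 197 CPM in regulatory cells, and at most 3 cells of a kind and library held 5 or more of these UMIs. Summed macrophage markers were at 142 and 74.9 CPM in regulatory cells and at 121 and 122 CPM in CD8 cells. Without the cells with 5 or more UMIs of the melanoma or of the macrophage markers, the ratios in regulatory cells were 1.20 for Zfp36, -0.56 for Zfp36l2 and 0.77 for Mbnl1. Cd8a and Cd8b1 together were at 894 CPM in WT against 441 CPM in VISTA-KO conventional CD4 cells and at 848 and 387 CPM in regulatory cells. Restricted to cells without these UMIs, the ratio of Mbnl1 in regulatory cells was 0.82, its highest under any alternative run. Under the same setting the ratio of Zfp36l2 in conventional CD4 cells passed the threshold. No other member changed its side of the threshold under it in either CD4 kind. In regulatory cells of 3000 to 8000 UMIs, the ratios were 0.90 for Zfp36, -0.83 for Zfp36l2 and 0.70 for Mbnl1.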

How the data were processed

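Per the labels and methods, CD4+ and CD8+ cells sorted from pooled B16 tumors were run on a 10x Genomics chip, 1 library per genotype (a 3′ kit with feature barcodes by the labels, a V(D)J profiling kit by the methods). The authors deposited whole-number UMI counts per gene and cell, and the submitters' processing notes name Cell Ranger 5.0.0 and Seurat 4. The methods name the mouse mm10 reference of the 2020-A release for the gene counts. Clonotypes came from the deposited receptor rearrangement tables and served only to mark likely doublets and the largest clonotype.

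From these counts, cells with at least 600 genes and under 30% mitochondrial UMIs were kept. Siglech cells were taken first, by at least 2 UMIs, and the T cell kinds by at least 1 UMI of their defining genes. Cells in no kind were 13.4% of WT and 12.7% of VISTA-KO cells. Doublets were kept, and an alternative left out cells with 2 or more productive beta chains or over 4 times the median UMIs of their kind. UMIs were summed per kind and library and scaled to CPM, 5 CPM were added, and ratios were taken on the log2 scale over genes with at least 20 CPM in 1 library. With 1 library per genotype there was no test, and the intervals cover counting error only. Shares of cells were read after thinning to 2000 UMIs (4000 in an alternative). The genes named are the 6 members, the 3 genes most like each, and members of fixed lists past the threshold in CD8 cells, with a few others of these lists added after their values were seen. The members and lists were chosen with earlier results of these data known. Promoters and positions are from RefSeq, GRCm38.p6, which held no promoter entry used here for Zfp36l2. Python 3.11.15, numpy 2.4.6, scipy 1.17.1, pandas 2.3.3 and matplotlib 3.10.9 were used, and the scripts were tested on simulated data.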

Additional observations from a re-analysis of the deposited data

Results flagged for a closer look

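Rc3h1, the gene of Roquin-1, had ratios of opposite sign in 2 cell kinds. The VISTA-KO library was higher in Siglech cells, by 0.53 (0.06 to 0.99) on the log2 scale from 63 and 54 UMIs. In CD8 cells the ratio was -0.12 (-0.24 to -0.01), within the threshold. Each kind has 1 library per genotype, and the difference between the kinds was not tested.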

How the results depend on the processing

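Ratios were recomputed under 15 alternatives in CD8 cells, 16 in each CD4 kind and 13 in Siglech cells, of which 4 were chosen after seeing the data: cells of 3000 to 8000 UMIs, no barcodes shared between the libraries, no cells with 5 or more UMIs of melanoma or macrophage markers, and immediate-early groups weighted as in WT. The number of members past the threshold was 2 to 3 in CD8, 3 to 4 in conventional CD4, 4 in regulatory and 3 to 5 in Siglech cells. At the main setting, 2.57% of all genes were higher and 1.6% lower in CD8 cells, and 3.43% and 4.15% in conventional CD4 cells. These shares were 6.28% and 5.45% in regulatory cells and 10.4% and 12.1% in Siglech cells. Because the members were selected on this contrast, nothing is read from these counts. Mbnl1 ranged from 0.52 to 0.62 in CD8, 0.49 to 0.65 in conventional CD4, 0.61 to 0.82 in regulatory and 0.23 to 0.45 in Siglech cells, where it lost the call under 2 alternatives. Zfp36l2 ranged from -0.52 to -0.15, -0.52 to -0.22, -0.91 to -0.51 and -0.69 to -0.55 in the same order. Zfp36 ranged from -0.08 to 0.40, 0.17 to 0.71, 0.38 to 1.20 and 0.18 to 0.47, and Zc3h12a from 0.01 to 0.39, 0.37 to 0.78, 0.41 to 0.95 and 0.12 to 0.79. Zfp36l1 ranged from -0.04 to 0.35, -0.02 to 0.31, -0.22 to 0.25 and 0.09 to 0.57, and Rc3h1 from -0.22 to -0.08, -0.16 to 0.04, -0.10 to 0.13 and 0.39 to 0.80. Of the ratios of single members under these alternatives, 88 moved by more than their counting interval and 272 did not. Of the ratios within states, 28 moved and 56 did not, and of those split by Nr4a1, 27 moved and 15 did not. Of the shares of cells, 24 moved and 24 did not. Weighting by immediate-early groups gave the lowest Zfp36 value in each T cell kind. Zc3h12a and Rc3h1 in Siglech cells rest on 54 to 119 UMIs per library, which limits their precision. No paired analysis was possible because each genotype is 1 library.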
